A study of Oryctolagus cuniculus with 8 samples.

Results

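The genes of oxidative phosphorylation (OXPHOS) were read across 8 RNA-seq libraries of rabbit stromal cells. They were picked by gene name alone, as the table entries whose symbol begins like that of a nuclear-encoded subunit of the respiratory complexes or of ATP synthase, and 42 of 20586 genes in the table matched, out of 12843 that carry a symbol. Of the 42, 20 encode subunits of complex I, 2 of complex II, 2 of complex III, 8 complex IV subunits or their alternative forms, and 5 subunits of complex V (ATP synthase). The other 5, NDUFAF1, NDUFAF2, NDUFAF3, NDUFAF5 and NDUFAF6, share the NDUF prefix but encode assembly factors of complex I and are not subunits. Subunits without a symbol in the table, among them SDHA, CYC1 and CYCS, were not analysed here. All 42 symbols were those of protein-coding genes in the RefSeq annotation of another rabbit assembly (mOryCun1.1), so identifiers are those of the table and no coordinates are given.

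The cells were grown from the fat pad beneath the kneecap (infrapatellar, IPFSCs, 4 libraries) and from inguinal subcutaneous fat (ScASCs, 4 libraries) of 4 male New Zealand white rabbits aged 4 months. Both were released by collagenase, expanded on plastic in the same serum-containing medium and harvested at passage 1, with no gene altered, no inducing agent given and no sorting step described. Each library is a bulk culture, in which fewer cells of a type and less RNA per cell cannot be told apart. The question of the study was how stem cells of these fat depots differ, and here it is asked of the respiratory chain.

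Oxidative phosphorylation is the last stage of aerobic energy conversion in the inner mitochondrial membrane. Complex I takes electrons from NADH and complex II takes them from succinate; ubiquinone carries them to complex III, cytochrome c carries them to complex IV, and complex IV passes them to oxygen. Complexes I, III and IV pump protons as they work, and complex V lets the protons flow back to make ATP. Most subunits are encoded in the nucleus and a small set of core subunits in mitochondrial DNA, so the complexes are built from transcripts of both genomes. Cultured mesenchymal stromal cells are known to draw much of their ATP from glycolysis and to raise respiration when they differentiate into adipocytes or osteoblasts.

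The deposited values follow log2(RPKM + 1), and levels are given here as RPKM, a read count scaled to transcript length and to the size of the library. Limma was run on the 11294 genes whose mean RPKM exceeded 1 in ScASCs, in IPFSCs or in both, and a gene was called at an adjusted p (Benjamini-Hochberg over all 11294) under 0.05. A log2 fold change below 0 means a lower value in IPFSCs, and since 1 is added to each RPKM before the logarithm, changes of weakly expressed genes come out too small. Libraries had similar relative depth, the shallowest being at 0.825 of the deepest, and the number of reads is unknown. The stromal label fitted its markers: 9 of 10 listed mesenchymal genes were in the table, and all 9 were tested. Their summed RPKM, 11275 to 16778 in ScASCs and 6760 to 10392 in IPFSCs, did not overlap. Most of it came from COL1A1, COL1A2 and COL3A1 (means of 3042, 2587 and 4877 RPKM over the 8 libraries), while THY1 had 9.45. Endothelial markers summed to 0.244 to 2.63 RPKM in ScASCs and 0.0246 to 0.844 in IPFSCs, and macrophage markers to 11.8 to 22.6 and 13.5 to 27.9, of whose 9 genes CD163, PTPRC, C1QA and C1QB were listed at 0 in all libraries. CD68 alone, at 10.6 to 25.9 RPKM, made up most of the macrophage sum. Of the brown fat markers in the table, UCP1, the uncoupling protein of brown adipocytes, was listed at 0 in 6 libraries and was at most 0.0406 RPKM. Skeletal muscle markers were low, and over 9 entries their summed RPKM of 1.34 to 1.84 in ScASCs and 2.46 to 3.93 in IPFSCs did not overlap. Adipocyte markers summed to 34.4 to 86.9 RPKM in ScASCs and 48.1 to 120.1 in IPFSCs, pericyte and smooth muscle markers to 107.6 to 2285 and 157 to 1413, and chondrocyte and synovial markers to 30.0 to 41.5 and 41.4 to 74.2. Here too single genes weighed heavily: ACTA2 had 98.2 to 2269 RPKM and LPL 8.48 to 90.8, while ADIPOQ had at most 2.04. Of the 23 marker genes tested, 1 fell in limma, the mesenchymal gene COL3A1 (log2 fold change −0.85, adjusted p = 0.0461), and 3 rose, MCAM, CSPG4 and the cartilage gene ACAN (2.26, 1.76 and 2.19, adjusted p = 0.00472, 0.00742 and 0.0291). Over all tested genes, 2.31% were called lower and 2.67% higher in IPFSCs. The calls of COL3A1 and ACAN were lost in the same 6 omissions of 1 library (ScASC libraries 2 to 4 and IPFSC libraries 1 to 3), with adjusted p up to 0.135 and 0.0895, and that of COL3A1 also with no filter on low RPKM (0.197) and with median-ratio scaling (0.0579). Within these lists markers went both ways: LUM, a mesenchymal gene, had a log2 fold change of 1.60 and COL2A1, a cartilage gene, one of −0.51 (adjusted p = 0.0575 and 0.0749 in limma). With the library number as a block, LUM and COL2A1 were called in limma (adjusted p = 0.00902 and 0.0154). In all, that fit called 12 of the 23 marker genes, 6 higher and 6 lower in IPFSCs, against 8.05% of all genes. The marker lists were chosen with earlier results of these data known, so these shares are no test of markers against genes in general. The part of these markers in the OXPHOS values was not tested.

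Transcripts of the OXPHOS genes were abundant in both cell types. Together the 42 genes made up 0.758% to 0.868% of the summed RPKM of a library, and 37 of them lay above 10 RPKM in all 8 libraries. The most abundant was ATP5F1B, the catalytic β subunit of ATP synthase, with 424 ± 48.2 in ScASCs and 368 ± 53.0 RPKM in IPFSCs (SD, n = 4 each). It was followed by the c-ring subunit ATP5MC3 with 284 and the complex IV subunit COX4I1 with 249 RPKM as means over the 8 libraries. The 5 widely expressed complex IV genes and 4 of 5 complex V genes, all but ATP5MC1, stood above every complex I gene. The 20 complex I genes had mean levels from 17.8 RPKM for NDUFAB1, the mitochondrial acyl carrier protein, to 105 for NDUFV2, an iron-sulfur subunit of the NADH-oxidizing module. The levels of the 2 complex III genes, 45.7 RPKM for UQCRC1 and 29.5 for UQCRQ, were lower than those of both complex II genes. Transcripts of subunits that stand in equal number in the assembled complex differed in level, as COX4I1 and COX5B did by 249 against 126 RPKM. At the lower end were assembly factors (NDUFAF2, NDUFAF5 and NDUFAF6) and the restricted complex IV forms COX7A1 and COX4I2.

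**Figure D1:**
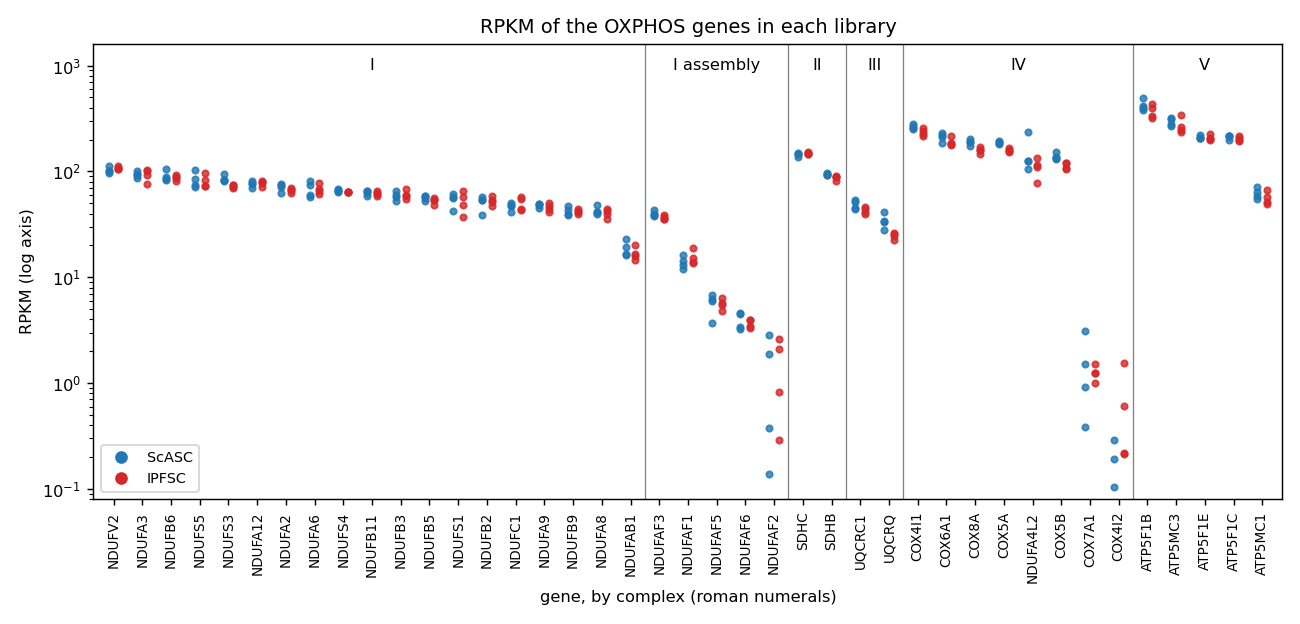
RPKM of 41 OXPHOS genes (log axis) in the 4 ScASC and 4 IPFSC libraries, 1 point per library, ordered by complex and by mean level; the ScASC library in which COX4I2 was listed at 0 is not drawn. Most genes lie above 10 RPKM with the cell types side by side, and NDUFAF2, COX7A1 and COX4I2 lie lowest and spread most.

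No OXPHOS gene was called between IPFSCs and ScASCs in the comparison by cell type alone, and 1, UQCRQ, was called as lower in IPFSCs when the library number was added as a block (adjusted p = 0.0229 in limma, where 8.05% of all genes were called). Of the 42 genes, 41 passed the filter on low RPKM and 0 of these 41 passed the test in limma, where 4.98% of all tested genes did (2.67% higher and 2.31% lower in IPFSCs), and so 0 were called when a fold change over 2 was required as well, as 2.86% of all genes were. The study used these thresholds with edgeR, whereas here they were applied to limma and to fold changes of RPKM + 1. At an unadjusted p under 0.05 there were 5 of 41 (12.2%, against 16.5% of all genes tested), NDUFS3, UQCRQ, COX5A, COX5B and COX8A. All 5 had lower values in IPFSCs, a direction with an unadjusted p under 0.05 in 7.85% of all genes. The smallest adjusted p was 0.0710, for UQCRQ. In these 5 genes and SDHB every IPFSC library lay below every ScASC library, which makes 6 of 41 (14.6%, against 5.73% of all genes), and in 0 of 41 did every IPFSC library lie above (6.07% of all genes). Read by libraries of the same number, 9 of 41 genes (22.0%) were lower in IPFSCs in all 4 pairs, as were 15.6% of all genes. The differences were small: log2 fold changes ran from −0.44 to 0.14 with a median of −0.077, beside a median of −0.0035 over all genes tested, and 31 of 41 lay below 0 (75.6%, against 50.9% of all genes). The estimates were also tight. The median standard error was 0.092 for the members and 0.14 for all genes, and for 40 of 41 the 95% interval lay within a 2-fold change in either direction, as it did for 86.1% of all genes. The exception was NDUFAF2. For weakly expressed genes the width depends on the value added to RPKM. With 0.1 added in place of 1, the standard error was 0.52 for COX7A1 (0.30 with 1) and 0.91 for NDUFAF2 (0.46 with 1).

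**Figure D2:**
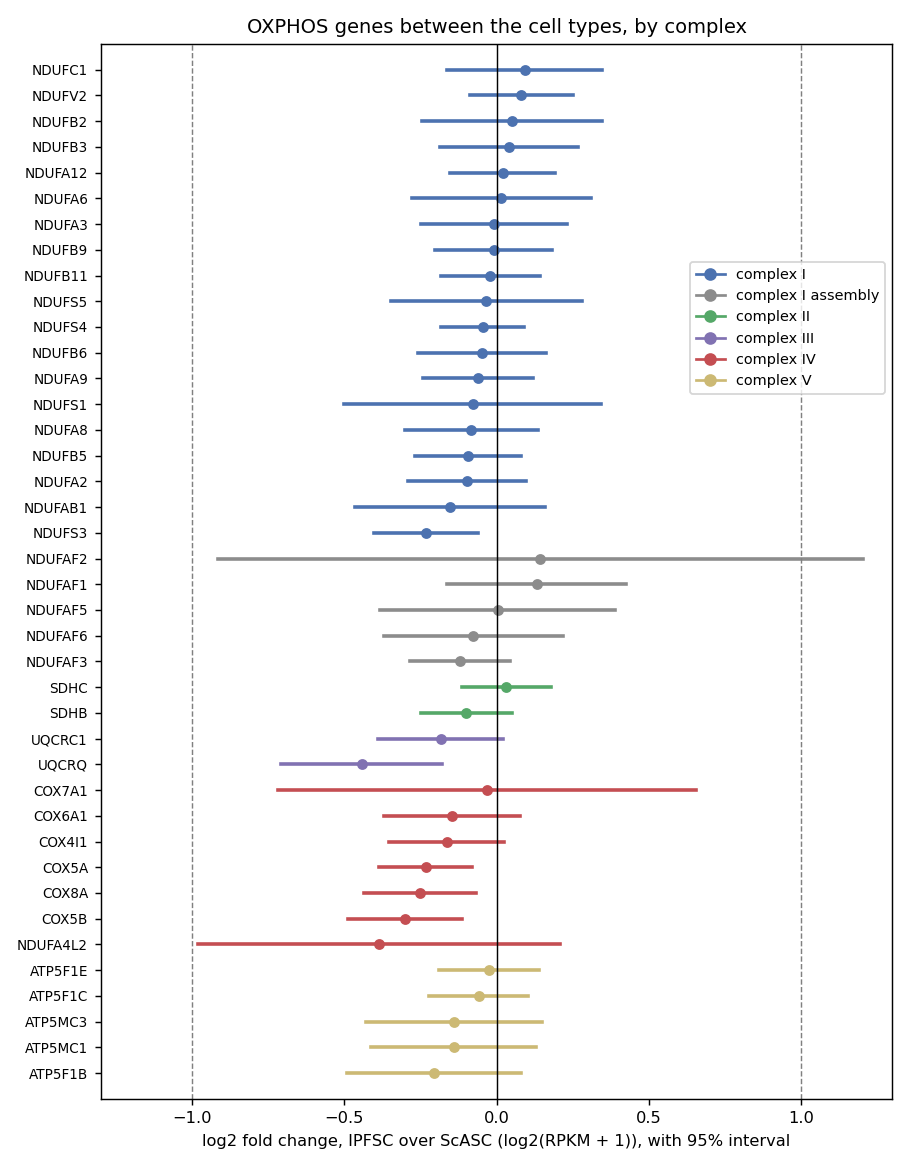
Log2 fold change, IPFSCs over ScASCs, of 40 of the 41 tested OXPHOS genes (points) with 95% intervals from limma (lines), coloured by complex; dashed lines mark a 2-fold change. All tested complex III, IV and V genes have estimates below 0 (COX7A1 turns to 0.081 with a pseudocount of 0.1), complex I genes lie on both sides of it, and only the interval of NDUFAF2 crosses a dashed line.

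Complex IV, cytochrome c oxidase, held 3 of the 5 genes with an unadjusted p under 0.05. COX5A and COX5B are nuclear-encoded subunits on the matrix side of the complex, and COX8A is a small membrane subunit. The RPKM of COX5B (ENSOCUG00000017085) was 154, 138, 135 and 131 in ScASC replicates 1 to 4 and 106, 120.2, 107 and 119 in IPFSC replicates 1 to 4. Every IPFSC library lay below every ScASC library. The mean was 19.0% lower in IPFSCs, a log2 fold change of −0.30 (standard error 0.082, 95% interval −0.49 to −0.11, adjusted p = 0.0801 in limma). COX5A had 193, 180.4, 184 and 189.8 RPKM in the ScASC libraries and 160.2, 167, 151 and 157 in the IPFSC libraries. These groups did not overlap either, and the gap was wide beside the spread within each cell type, at 187 ± 5.85 in ScASCs and 159 ± 6.72 RPKM in IPFSCs (SD, n = 4 each). The log2 fold change of COX5A was −0.23 (95% interval −0.38 to −0.080, adjusted p = 0.0980) in limma. COX8A was listed at 204, 174, 191 and 189 RPKM in ScASCs and 146, 159.8, 159.7 and 170.0 in IPFSCs, again without overlap, the highest IPFSC library being just under the lowest ScASC library. Its log2 fold change was −0.25 (95% interval −0.44 to −0.069, adjusted p = 0.135) in limma.

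The other widely expressed complex IV genes differed less. COX4I1, the largest nuclear-encoded subunit and the first to join the catalytic core, had 282, 255, 250.2 and 266 RPKM in ScASCs and 241, 257, 216 and 226 in IPFSCs, where IPFSC replicate 2 lay within the ScASC range. COX6A1, the form of subunit VIa found outside heart and muscle, had 213, 185, 220.4 and 229 RPKM in ScASCs and 187, 178, 182 and 217 in IPFSCs, with overlapping groups and a lower value in IPFSCs in all 4 pairs of libraries with the same number. Their log2 fold changes in limma were −0.16 (95% interval −0.35 to 0.023, adjusted p = 0.390) and −0.15 (95% interval −0.37 to 0.077, adjusted p = 0.562). Summed over the 5 genes, the RPKM was 1047, 932, 980.4 and 1005 in ScASC replicates 1 to 4 and 840.4, 883, 817 and 889.9 in IPFSC replicates 1 to 4. The sums did not overlap, and their mean was 13.5% lower in IPFSCs. Sums of the 2 complex III genes (18.6% lower) did not overlap either, while those of complexes I, II and V did. Over all 42 members the sums were 8.02% lower and barely apart, at 3915 or more in ScASCs and 3912 or less in IPFSCs. The 5 widely expressed complex IV genes had a median log2 fold change of −0.23 and all 5 lay below 0. The other 36 tested members had a median of −0.053 with 26 below 0. None of the 5 complex IV genes was called.

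**Figure D3:**
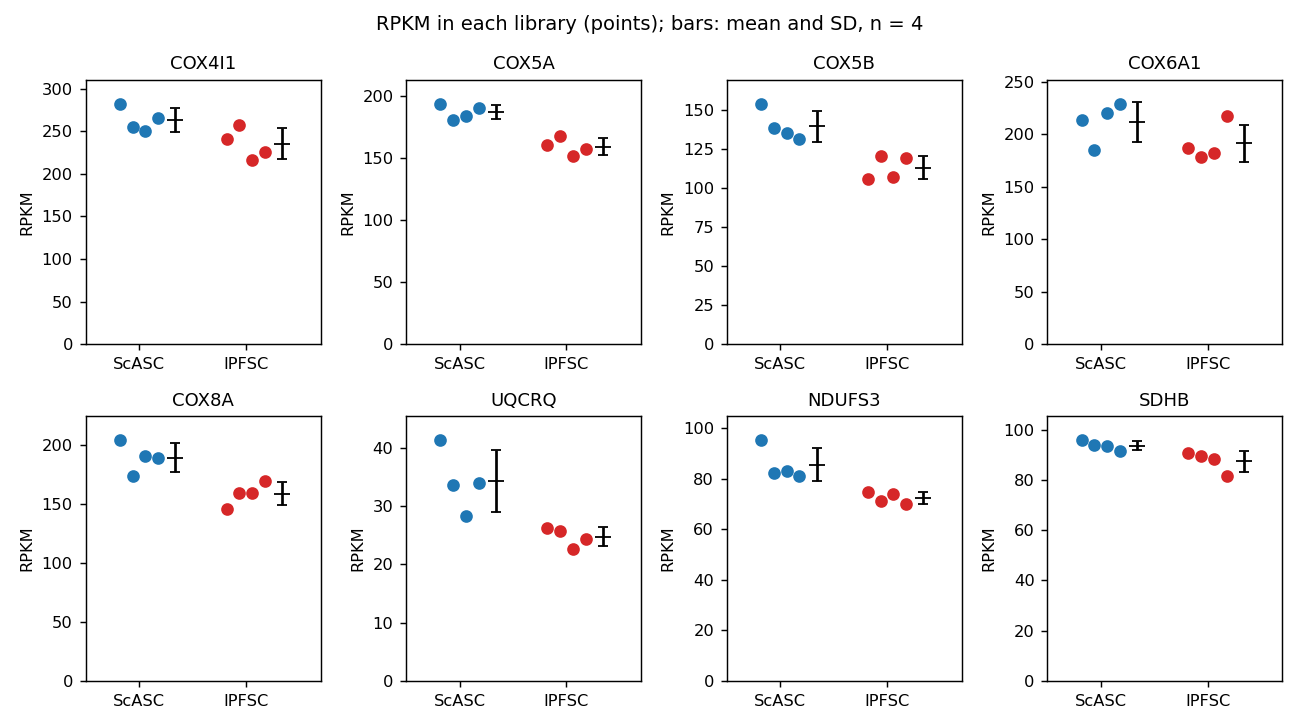
RPKM (axes from 0) of 8 OXPHOS genes in each ScASC (blue) and IPFSC (red) library, 1 point per library in the order of the replicate number, with the mean and SD beside them (n = 4). COX5A, COX5B, COX8A, UQCRQ, NDUFS3 and SDHB do not overlap between the cell types, while COX4I1 and COX6A1 do.

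Some complex IV subunits have alternative forms that are restricted to certain tissues or conditions. COX4I2 replaces COX4I1 in lung and is raised by low oxygen, COX7A1 is the form of subunit VIIa in heart and skeletal muscle and also marks brown fat, and NDUFA4L2 is a hypoxia-induced relative of the subunit NDUFA4. COX4I2 was nearly silent, at 0.191, 0, 0.289 and 0.105 RPKM in ScASCs and 1.56, 0.217, 0.607 and 0.212 in IPFSCs. It reached 1 RPKM in IPFSC replicate 1 alone and did not pass the filter, and with no filter its log2 fold change was 0.46 (standard error 0.23, adjusted p = 0.439 in limma). COX7A1 lay at 1.5, 0.92, 0.38 and 3.1 RPKM in ScASCs and 1.2, 1.5, 1.0 and 1.3 in IPFSCs, with the ScASC libraries on both sides of the IPFSC libraries. Its log2 fold change of −0.031 (95% interval −0.72 to 0.66, adjusted p = 0.990) in limma turned to 0.081 with a pseudocount of 0.1. NDUFA4L2 was by contrast one of the abundant genes, with 124, 125, 236 and 105 RPKM in ScASCs and 116, 77.3, 133 and 109.7 in IPFSCs. ScASC replicate 3 stood highest and the other ScASC libraries lay among the IPFSC libraries. The log2 fold change of NDUFA4L2 was −0.39 (95% interval −0.98 to 0.21, adjusted p = 0.565) in limma, and without ScASC replicate 3 it was −0.14 (adjusted p = 0.856).

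Complex III, the cytochrome bc1 complex, is represented by a small subunit, UQCRQ, and by UQCRC1, a large core subunit on the matrix side. UQCRQ (ENSOCUG00000013627) had the largest estimated difference of the 41 genes, with 41.2, 33.6, 28.2 and 33.9 RPKM in ScASC replicates 1 to 4 and 26.3, 25.8, 22.6 and 24.3 in IPFSC replicates 1 to 4. The groups did not overlap, and ScASC replicate 1 was the highest and ScASC replicate 3 the lowest of its group. The mean was 27.7% lower in IPFSCs, a log2 fold change of −0.44 (standard error 0.12, 95% interval −0.71 to −0.18, adjusted p = 0.0710 in limma). With the library number as a block, taken as the rabbit, UQCRQ was the only member called, in a fit that called 3.74% of all genes as lower. It was also called without ScASC replicate 3 (log2 fold change −0.53, adjusted p = 0.0357, of 0.0229 to 0.197 over the 15 alternatives), a fit in which 1.85% of genes were called as lower. UQCRC1 had 53.1, 51.9, 45.4 and 44.4 RPKM in ScASCs and 43.7, 46.6, 41.2 and 39.6 in IPFSCs. IPFSC replicate 2 lay above the lowest ScASC libraries, and UQCRC1 was lower in IPFSCs in all 4 same-numbered pairs. Its log2 fold change was −0.18 (95% interval −0.39 to 0.022, adjusted p = 0.377) in limma.

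In complex II, succinate dehydrogenase, which also belongs to the citric acid cycle, SDHB carries the iron-sulfur clusters and SDHC is a membrane anchor. SDHB was listed at 95.7, 93.9, 93.3 and 91.6 RPKM in ScASCs and 90.6, 89.4, 88.1 and 81.4 in IPFSCs, so that the groups did not overlap, although the highest IPFSC and the lowest ScASC library were close. The mean was 6.68% lower in IPFSCs, with −0.10 (95% interval −0.25 to 0.050, adjusted p = 0.550) as the log2 fold change in limma. SDHC was nearly level at 147, 147, 149 and 137 RPKM in ScASCs and 153, 149, 146 and 145 in IPFSCs. Its interval was among the narrowest of the set, with a log2 fold change of 0.032 (95% interval −0.12 to 0.18, adjusted p = 0.907) in limma.

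Complex I, NADH dehydrogenase, is the largest complex of the chain, and some of its core subunits carry the electrons. NDUFS3, part of the arm that reaches into the matrix, had 95.1, 82.4, 83.1 and 81.0 RPKM in ScASCs and 74.5, 71.2, 74.1 and 69.8 in IPFSCs without overlap. The mean of NDUFS3 was 15.2% lower in IPFSCs, a log2 fold change of −0.23 (standard error 0.075, 95% interval −0.40 to −0.062, adjusted p = 0.138 in limma). NDUFS1, a further core subunit of this arm, and NDUFV2 had log2 fold changes of −0.078 (95% interval −0.50 to 0.34, adjusted p = 0.921) and 0.081 (95% interval −0.088 to 0.25, adjusted p = 0.717) in limma. NDUFS1, which holds several of the iron-sulfur clusters, was lowest in replicate 4 of both cell types, and NDUFV2 had the higher mean in IPFSCs, at 102 ± 7.57 in ScASCs and 108 ± 3.13 RPKM in IPFSCs (SD, n = 4 each).

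The 16 accessory subunits of complex I, which surround the core and are needed for its assembly and stability, differed little between the cell types. Their median log2 fold change was −0.027, with 11 below 0 and 5 above, and 0 of 16 had an unadjusted p under 0.05 in limma. All 16 had overlapping cell types. Estimates ran from −0.15 for NDUFAB1, with 18.8 ± 3.20 in ScASCs and 16.8 ± 2.32 RPKM in IPFSCs (SD, n = 4 each), to 0.092 for NDUFC1, with 46.7 ± 3.73 in ScASCs and 50.1 ± 6.96 RPKM in IPFSCs (SD, n = 4 each). NDUFS4, an accessory subunit whose loss causes severe complex I deficiency, had the smallest standard error of all members, with 66.0, 66.5, 67.7 and 64.0 RPKM in ScASCs and 63.4, 64.4, 63.6 and 64.3 in IPFSCs. For NDUFS4 the 95% interval of the log2 fold change was −0.18 to 0.091. Among the subunits of the membrane arm, NDUFB2, NDUFB3, NDUFB5, NDUFB6, NDUFB9 and NDUFB11 had log2 fold changes of 0.050, 0.040, −0.094, −0.048, −0.0099 and −0.021 (adjusted p from 0.668 to 0.988 in limma). Those of NDUFA2, NDUFA3, NDUFA6, NDUFA8, NDUFA9, NDUFA12 and NDUFS5 were −0.097, −0.0085, 0.016, −0.083, −0.060, 0.020 and −0.033 (adjusted p from 0.704 to 0.990 in limma).

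The 5 assembly factors of complex I, which help to join the subunits and leave the finished complex, had mean levels from 1.39 to 38.2 RPKM, beside 17.8 to 105 for the subunits of the complex. NDUFAF3 had 39.9 ± 2.21 in ScASCs and 36.6 ± 1.61 RPKM in IPFSCs (SD, n = 4 each) and NDUFAF1 had 13.9 ± 1.83 in ScASCs and 15.3 ± 2.36 RPKM in IPFSCs (SD, n = 4 each). NDUFAF5 and NDUFAF6 had 5.62 and 3.81 RPKM as means over the 8 libraries. None was called, and their log2 fold changes were −0.12, 0.13, 0.0033 and −0.077 (adjusted p = 0.496, 0.745, 0.998 and 0.883 in limma). For NDUFAF2 the interval of the log2 fold change, −0.91 to 1.20 around 0.14 (adjusted p = 0.951 in limma), did not exclude a 2-fold rise, and its libraries are given with those of the other genes that follow the library number.

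All 5 complex V genes had estimates below 0 (median −0.14 on the log2 scale), and none had an unadjusted p under 0.05 in limma. ATP5F1B was listed at 493, 418, 384 and 400.3 RPKM in ScASCs and 395, 430.3, 331 and 318 in IPFSCs. The highest library was ScASC replicate 1 and the lowest were IPFSC replicates 3 and 4, but IPFSC replicate 2 lay above 3 of the ScASC libraries. The log2 fold change of ATP5F1B was −0.21 (95% interval −0.49 to 0.079, adjusted p = 0.505) in limma. ATP5F1C, the central stalk subunit γ, and ATP5F1E, the small ε subunit, were close to level, with log2 fold changes of −0.059 (95% interval −0.22 to 0.10, adjusted p = 0.817) and −0.025 (95% interval −0.19 to 0.14, adjusted p = 0.941) in limma. ATP5MC1 and ATP5MC3 encode the same mature c-ring protein with different targeting sequences. Of these genes ATP5MC3 was the more abundant, at 297 ± 25.1 in ScASCs and 272 ± 47.9 RPKM in IPFSCs (SD, n = 4 each). ATP5MC1 had 61.9 ± 7.17 in ScASCs and 56.2 ± 7.66 RPKM in IPFSCs (SD, n = 4 each), and the log2 fold changes of ATP5MC3 and ATP5MC1 were −0.14 (95% interval −0.43 to 0.15, adjusted p = 0.716) and −0.14 (95% interval −0.41 to 0.13, adjusted p = 0.685) in limma.

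The genes of a complex were also read together within each library. The deviation of each gene from its mean over the 8 libraries was taken on the log2(RPKM + 1) scale, and the median over the genes of a complex was read per library. For the 5 widely expressed complex IV genes it was 0.18, 0.039, 0.10 and 0.13 in ScASC replicates 1 to 4 and −0.11, −0.061, −0.19 and −0.076 in IPFSC replicates 1 to 4. Every ScASC value was above 0 and every IPFSC value below it. For complex V it was 0.18, 0.047, −0.033 and 0.027 in ScASC replicates 1 to 4 and −0.059, 0.13, −0.19 and −0.24 in IPFSC replicates 1 to 4, with IPFSC replicate 2 above 3 of the ScASC libraries. Over all 20 complex I genes the medians stayed between −0.038 and 0.065. ScASC replicate 1 was the highest library for each of these complexes and for complex III, and without it the median log2 fold change of the 41 genes was −0.045 in place of −0.077. Over all tested genes the median deviation of ScASC replicate 1 was 0.013.

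**Figure D4:**
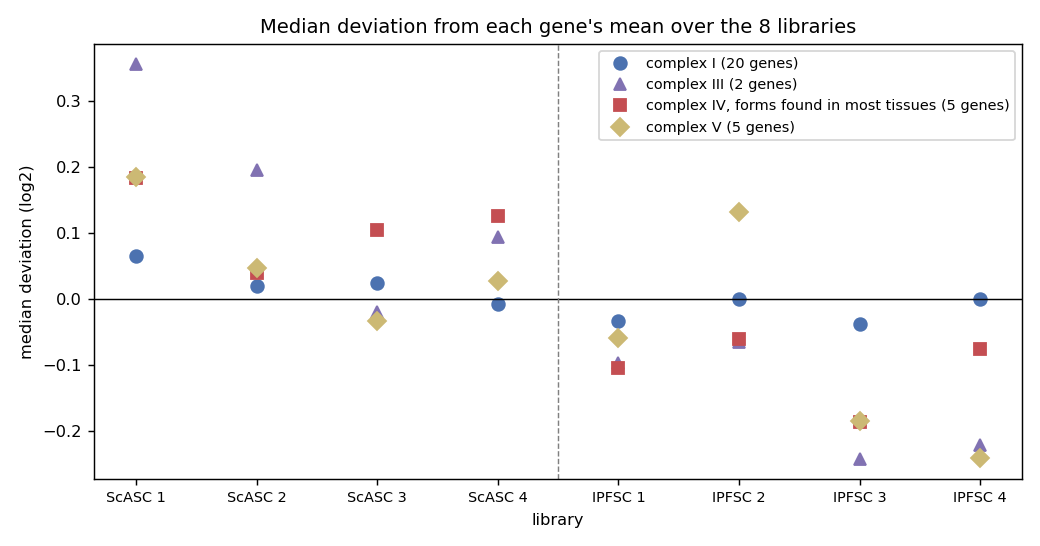
Median log2 deviation of the genes of complexes I, III, IV (widely expressed forms) and V from their own means over the 8 libraries, by library, with the cell types parted by the dashed line. Complex IV lies above 0 in the 4 ScASC libraries and below 0 in the 4 IPFSC libraries, and complex V reaches 0.13 in IPFSC replicate 2.

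Several OXPHOS genes differed more between library numbers than between the cell types. The labels do not say which libraries share a rabbit, and equal numbers were taken to do so. These genes were picked for this pattern after their values were seen, and the shares are a description with no test. Of the summed squared deviations of a gene over the 8 libraries, the number took a median of 50.4% in the 41 members and 55.1% in all tested genes, where 42.9% is its share of the degrees of freedom. The cell type took medians of 15.4% and 12.4%. In NDUFAF2 the number took 96.9%, a share reached by 1.25% of all tested genes. NDUFAF2 (ENSOCUG00000004525), a late assembly factor that is replaced by an accessory subunit as complex I is completed, had 2.9, 1.9, 0.14 and 0.38 RPKM in ScASC replicates 1 to 4 and 2.6, 2.1, 0.29 and 0.83 in IPFSC replicates 1 to 4. In both cell types numbers 1 and 2 were high and numbers 3 and 4 were low, with number 3 lowest.

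The same was seen at higher levels and with smaller steps. NDUFB3, a subunit of the membrane arm, had 60.5, 65.6, 57.1 and 52.5 RPKM in ScASCs and 60.2, 68.8, 59.2 and 54.3 in IPFSCs, with number 2 highest and number 4 lowest in both and 95.8% of the squared deviations taken by the number. NDUFA6 had 74.0, 57.6, 59.8 and 80.7 RPKM in ScASCs and 68.7, 61.5, 65.0 and 78.5 in IPFSCs, with number 4 highest and number 2 lowest in both cell types (92.3%). NDUFS1 had 61.7, 56.6, 57.0 and 41.9 RPKM in ScASCs and 57.7, 64.7, 48.7 and 36.8 in IPFSCs, lowest in number 4 of both (88.2%). NDUFS5 had 84.0, 103, 74.7 and 71.5 RPKM in ScASCs and 73.0, 96.3, 82.3 and 72.7 in IPFSCs, highest in number 2 and lowest in number 4 of both (87.4%). Numbers thus ranked differently from gene to gene, and no number was high or low in all of them. The median share of the number over all tested genes was 55.1%. How many of all genes reach the shares of NDUFB3, NDUFA6, NDUFS1 and NDUFS5 was not computed. The complex IV genes COX5A, COX5B and COX8A stood at the other end, with shares of 5.30%, 4.90% and 6.44% for the number. Outside the subunits, SLC25A4, which encodes an ADP/ATP carrier that brings ATP out of the matrix, had 13.2, 11.5, 9.92 and 58.4 RPKM in ScASCs and 12.0, 10.2, 11.6 and 62.1 in IPFSCs. Number 4 was far above the rest in both cell types, and the number took 99.4%, a share reached by 0.186% of all tested genes.

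**Figure D5:**
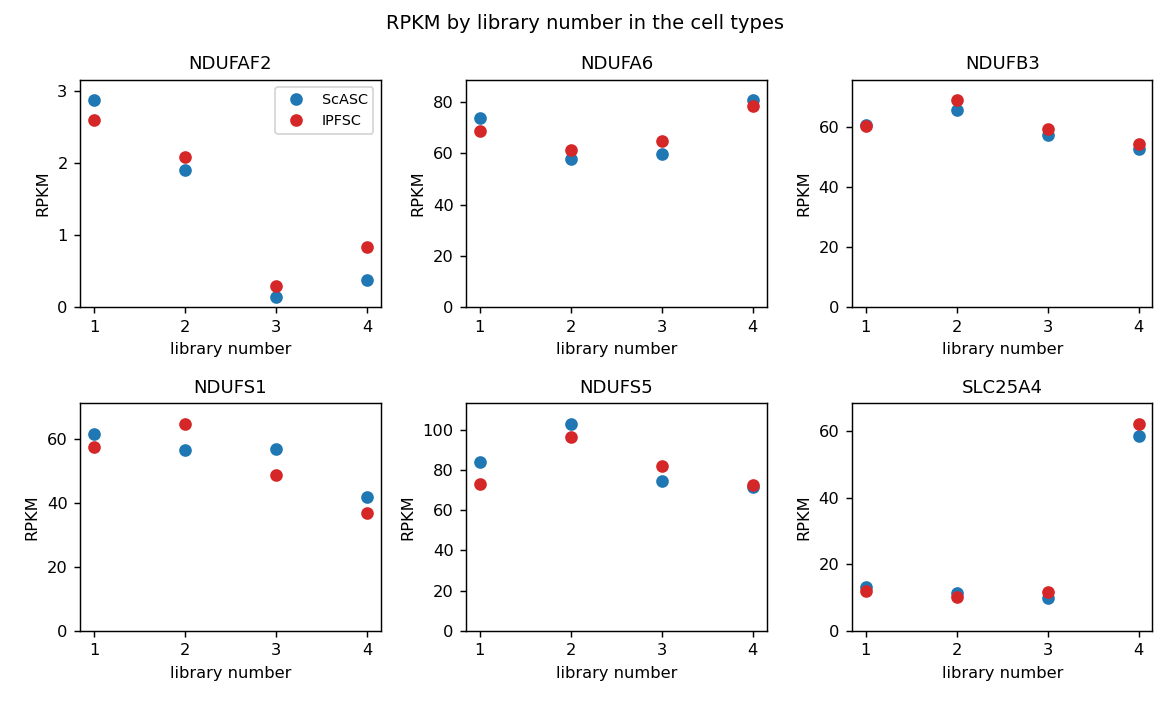
RPKM (axes from 0) of NDUFAF2, NDUFA6, NDUFB3, NDUFS1, NDUFS5 and SLC25A4 by library number, in ScASCs (blue) and IPFSCs (red), 1 point per library. Points of the same number lie close together in NDUFB3 and SLC25A4 and less so in NDUFS1 and NDUFS5. NDUFAF2 is high in numbers 1 and 2, and SLC25A4 is high in number 4 of both cell types.

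No gene in the lists of those that build, supply or regulate the chain was called. Over 12 lists of mitochondrial genes, 0 of 128 tested genes were called, where 4.98% of all tested genes were, and 8 (6.25%, against 16.5% of all) had an unadjusted p under 0.05 in limma. Of the assembly factors outside the NDUFAF names, 0 of 8 were called for complex I, 0 of 6 for complex III, 0 of 17 for complex IV and 0 of 1 for ATP synthase, with median log2 fold changes of −0.081, −0.11, −0.076 and −0.014. SDHAF1, the complex II assembly factor in the table, did not reach a mean of 1 RPKM. In limma 0 of 16 enzymes of the pyruvate dehydrogenase complex and the citric acid cycle were called (median log2 fold change −0.070), 0 of 46 mitochondrial ribosomal proteins (−0.029), 0 of 11 import proteins (−0.040), 0 of 6 fusion and fission genes (0.0037) and 0 of 6 carriers and porins (−0.10). No mtDNA-encoded subunit was matched by symbol. With the library number as a block, limma called CMC1, an assembly factor of complex IV (log2 fold change −0.32, adjusted p = 0.0412, against 0.144 without the block). It also called MRPS27, a protein of the small mitochondrial ribosomal subunit (−0.55, adjusted p = 0.0103, against 0.0971). That fit called 8.05% of all tested genes, and 3.74% of all were called as lower in IPFSCs.

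The regulators of mitochondrial biogenesis were likewise not called, 0 of 11 tested, with a median log2 fold change of 0.030. NRF1 and GABPA bind the promoters of many OXPHOS genes. NRF1 had 5.89 ± 0.714 in ScASCs and 6.18 ± 0.622 RPKM in IPFSCs (SD, n = 4 each) and a log2 fold change of 0.063 (95% interval −0.19 to 0.32, adjusted p = 0.893) in limma. For GABPA the levels were 26.1 ± 1.72 in ScASCs and 27.0 ± 1.22 RPKM in IPFSCs (SD, n = 4 each) and the log2 fold change was 0.048 (95% interval −0.13 to 0.22, adjusted p = 0.875). TFAM, which packages and transcribes mitochondrial DNA, had 14.3 ± 1.57 in ScASCs and 14.8 ± 1.77 RPKM in IPFSCs (SD, n = 4 each) and a log2 fold change of 0.040 (95% interval −0.22 to 0.30, adjusted p = 0.941). PPARGC1A, the coactivator PGC-1α, was low in every library at 0.277, 0.524, 0.692 and 0.354 RPKM in ScASCs and 0.181, 0.264, 0.762 and 0.564 in IPFSCs and did not pass the filter. Its relative PPARGC1B was also low, at 1.15 ± 0.296 in ScASCs and 0.690 ± 0.218 RPKM in IPFSCs (SD, n = 4 each). It passed the filter through ScASCs alone. The log2 fold change of PPARGC1B was −0.34 (95% interval −0.70 to 0.014, adjusted p = 0.328) in limma. With a pseudocount of 0.1 it was −0.67 (adjusted p = 0.329 in limma), so its size depends on the value added.

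UCP2, an inner membrane carrier of the uncoupling protein family, was the mitochondrial gene of these lists with the smallest adjusted p. Its RPKM was 4.57, 2.63, 1.29 and 6.10 in ScASCs and 7.35, 13.7, 11.3 and 9.65 in IPFSCs, with every IPFSC library above every ScASC library, as in 6.07% of all tested genes. For UCP2 the estimate was 1.40 ± 0.34 on the log2 scale (SE; adjusted p = 0.0539 in limma). Leaving out ScASC library 4 made it a call (adjusted p = 0.0330 in limma, with 0.0330 to 0.148 as the range over the alternatives). Of all genes, 381 of 11308 were called in that fit. Since COX4I2 and NDUFA4L2 are known targets of the hypoxia response, that list was read as well. Of its 9 tested genes 1 rose, CA9, a carbonic anhydrase induced by low oxygen, and 8 were not called. Over all tested genes, 2.67% were called higher in IPFSCs. Among the 8, ADM also had every IPFSC library above every ScASC library (6.07% of all genes). Its log2 fold change was 0.76 (adjusted p = 0.0740 in limma). CA9 had 24.5, 23.7, 17.6 and 11.0 RPKM in ScASCs and 39.4, 44.3, 39.1 and 35.1 in IPFSCs without overlap, and its log2 fold change was 1.06 with a standard error of 0.22 (adjusted p = 0.0323 in limma). The call of CA9 was lost without ScASC replicate 3 or IPFSC replicate 1, 2 or 3 (adjusted p = 0.0785, 0.0853, 0.0853 and 0.0946). The median log2 fold change of the hypoxia list was −0.13, with 6 of 9 below 0.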

How the data were processed

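RNA from 4 IPFSC and 4 ScASC cultures at passage 1 was sequenced from libraries made with a stranded mRNA kit. Per the methods of the study, the authors did not trim the paired-end reads, aligned them to the OryCun2.0 genome (Subread), assigned them to Ensembl genes (featureCounts) and derived RPKM. Tool versions, the strand setting and the handling of reads with several matches are not given in the sources used here. Processed copies of OXPHOS genes, common in mammalian genomes, can therefore take or add reads. The deposited values fit log2(RPKM + 1), a scale read from the values: converted back, 138 to 285 genes of low expression per library share a single ratio to ScASC replicate 1, as equal read numbers would give. A value of 1e-05 was set to an RPKM of 0. The table has 20595 entries for 20586 identifiers, and repeats were used once. The authors' own fold changes, p-values and mean CPM in the table were not used.

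All 11294 genes whose mean RPKM exceeded 1 in either group were tested with limma 3.58.1 in R 4.3.3 (moderated test with a variance trend, pseudocount 1, cell type as the only term, Benjamini-Hochberg adjustment). The script was tested on simulated data. No read counts were used, so the precision that depth gives is unknown. Alternatives were other pseudocounts (0.1 and 0.5), other filters, median-ratio scaling, no variance trend, a replicate block and omission of each library. The members and gene lists were chosen with earlier results of these data known. The rule for named genes took called members and list genes (up to 4 a list), the most and least abundant members and those of smallest p in each complex, all of complex II, alternative forms of a subunit, members that an alternative calls, and NRF1, GABPA, TFAM and PPARGC1A. Other members, SLC25A4, UCP2, PPARGC1B, ADM, list genes called under an alternative and some marker genes were added after their values were seen. The numbers of the libraries were taken as rabbits in the block: the study calls the cells donor-matched, and deviations of same-numbered libraries from their group means correlated across genes, which are not independent replicates, with r = 0.534, 0.550, 0.253 and 0.659 for numbers 1 to 4. Libraries of different number had r from −0.590 to 0.335. Across all tested genes, ScASC replicate 3 correlated more with IPFSC replicate 4 (r = 0.329) than with IPFSC replicate 3. By that measure the pairing of number 3 is the least certain. Across the 41 tested OXPHOS genes alone, r was 0.660, 0.496, 0.761 and 0.547 for numbers 1 to 4, highest for number 3. The study gives 4 donors per cell type but the labels name none, so p-values measure the spread between these libraries. The values of 1 member, which stays in the counts and medians, are not reported here.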

Additional observations from a re-analysis of the deposited data

Results flagged for a closer look

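In 4 of 82 groups of 4 libraries (41 genes in either cell type), 1 library stood far from the other 3 by Dixon's test on the log2(RPKM + 1) scale, and chance alone flags about 1 in 20 groups, here 4.1. All 4 were ScASC libraries. ScASC replicate 1 was high for NDUFA8, a complex I accessory subunit, at 48.4 RPKM beside 39.7 to 41.1 in the other 3 libraries. It was also high for NDUFS3, at 95.1 RPKM beside 81.0 to 83.1; without it, the log2 fold change of NDUFS3 was −0.18 (adjusted p = 0.219 in limma). ScASC replicate 2 was low for NDUFB2 at 39.0 RPKM beside 53.9 to 56.9, and ScASC replicate 4 was low for the complex II anchor SDHC at 137 RPKM beside 147 to 149. The reasons for these values were not tested.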

How the results depend on the processing

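Over 15 alternatives, 41 tested members gave 615 log2 fold changes, of which 580 kept their direction and stayed uncalled, 2 became calls and 33 changed sign without a call. The count of called members was 0 in 13 alternatives and 1, UQCRQ, with the replicate block and without ScASC replicate 3, so that omission of 1 library gave 0 to 1; none was called with a fold change over 2 in any. The replicate block changed no other call among the members. For the pathway lists the count was 1, but 3 with the replicate block (CA9, CMC1 and MRPS27) and 0 to 2 with 1 library left out. Over all genes, 8.05% were called with the block, and 315 to 562 of 11285 to 11314 genes with 1 library left out. COX7A1 changed sign with pseudocounts of 0.1 (0.081) and 0.5 (0.00089), and SLC25A4, at 0.00027, changed with pseudocounts of 0.1 (−0.00076) and 0.5 (−0.00028) and with median-ratio scaling (−0.00051). With 1 library left out, the log2 fold changes that changed sign ranged from −0.27 to 0.25 for COX7A1, −0.022 to 0.054 for NDUFA12, −0.055 to 0.082 for NDUFA3, −0.058 to 0.10 for NDUFA6, −0.14 to 0.45 for NDUFAF2, −0.16 to 0.088 for NDUFAF5, −0.051 to 0.0088 for NDUFB11, −0.070 to 0.11 for NDUFB2, −0.021 to 0.092 for NDUFB3, −0.087 to 0.025 for NDUFB6, −0.050 to 0.044 for NDUFB9, −0.20 to 0.074 for NDUFS1, −0.12 to 0.072 for NDUFS5, −0.59 to 0.56 for SLC25A4 and −0.022 to 0.11 for TFAM. Among genes outside the members, the complex I assembly factor DMAC1 was called without ScASC replicate 1 (adjusted p = 0.0491 in limma). That fit called 562 of 11308 genes. OGDH, a citric acid cycle enzyme, and MRPS27 were called without IPFSC replicate 2 (adjusted p = 0.0379 and 0.0383 in limma), where 421 of 11314 genes were called. With median-ratio scaling the median log2 fold change of all genes was −0.0041 in place of −0.0035. The number of reads is unknown, so no difference can be weighed against counting error.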
